A study of Mus musculus with 6 samples.

Results

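The callus of a tibial fracture was compared between day 7 and day 5 after injury, over all nuclei and within nuclei gated on 3 genes. One single-nucleus RNA library was made at each day, so every difference below is between those 2 libraries and no test could be run. Nuclei were chosen by measured values, which are therefore no finding: 200 to 5000 detected genes, under 2% of unique molecular identifiers (UMIs, the counted molecules) from mitochondrial genes, under 1.5% from Rps and Rpl genes, and under 1% from the muscle genes Ttn, Neb, Ckm and Acta1. This left 2231 of 2536 barcodes at day 5 (88.0%) and 1116 of 3448 at day 7 (32.4%), together 3347 of the 5984 barcodes of these libraries and of the 13551 of the whole series, of which 6652 passed the same filter.

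Both libraries came from mice labelled C57BL6, aged 12 weeks and of mixed sex, with an open tibial fracture that was not stabilized. The periosteum was scraped off together with the hematoma, and nuclei of 4 to 9 mice were pooled into each injured library, so variation between animals cannot be read from these values. Nuclei sorted on a DNA stain were sequenced with a 3′ droplet kit, counting intronic and exonic reads. The rest of the series consists of 2 uninjured and 2 day 3 libraries, which are given beside some results to show earlier levels and how far libraries that carry the same label lie apart.

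A fracture bridged without rigid fixation heals largely by endochondral ossification. Stem and progenitor cells of the periosteum first give a fibrous, matrix-rich tissue, part of which turns into cartilage, and hypertrophic cartilage is later replaced by bone. Immune cells, vessels and osteoclasts take part throughout, by clearing the hematoma, supplying the callus and removing calcified cartilage.

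The 2 libraries differed in more than time. The kept nuclei held a median of 2805 UMIs and 1517 genes at day 5 but 1243.5 UMIs and 751 genes at day 7, with totals of 8990707 and 2108526 UMIs. At day 7, 1084 barcodes were removed for mitochondrial UMIs, a further 1012 for ribosomal protein UMIs and a further 235 for muscle genes, against 1, 89 and 202 at day 5. Ribosomal protein UMIs left a gap at day 7, where the highest kept nucleus had 1.42% and the nearest removed barcode 2.21%, whereas at day 5 the values ran up to the limit from both sides without a gap. The muscle limit ran through a continuous range on both days (0.993% and 1.004% at day 5, 0.997% and 1.06% at day 7). No barcode was shared by the day 5 and day 7 libraries. Barcodes shared with the second day 3 library numbered 7 at day 5, of which 2 were kept, and 4 at day 7, of which none was kept. The reference for counting differed too, because 20 genes on unplaced scaffolds had no UMI at day 5 while 8 of them held 999 UMIs at day 7. A doublet caller marked 2 and 1 nuclei, 0.0896% of each library, which is too few to be a working call, so doublets were in effect not removed.

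Levels are given as CPM, the UMIs of a gene out of 1000000, over the summed nuclei of a library, and a gene was called higher or lower where that level differed 2-fold or more. Ranges beside a fold are exact 95% intervals for counting error only and do not cover variation between nuclei, animals or libraries. In sums of this kind, fewer nuclei of a type and less RNA per nucleus cannot be told apart. Of 6691 genes compared over all nuclei, 123 were higher at day 7 (1.84%) and 568 were lower (8.49%). The median gene differed by −0.21 on the log2 scale, and relative to that median the counts became 216 higher and 355 lower, so the higher share of the calls went from 17.8% to 37.8%. Libraries with the same label lay as far apart or farther: 10.3% of genes differed 2-fold or more between day 7 and day 5, 11.8% between the uninjured libraries and 21.6% between the day 3 libraries. The uninjured libraries were counted with Cell Ranger 6.0.0 and 7.1.0, the day 3 libraries with 7.1.0, and days 5 and 7 with 6.0.0, so in the uninjured pair the spread between libraries and the counting software cannot be told apart. The day 3 libraries listed 32285 and 31055 genes and had median depths of 1949 and 3499.5 UMIs. In that pair the spread cannot be told apart from the reference and the depth. Among genes higher at day 7 that could be compared in the uninjured libraries, 17 of 82 (20.7%) were also 2-fold or more apart there, as were 107 of 419 lower genes (25.5%). In the day 3 libraries the same counts were 36 of 70 (51.4%) and 265 of 523 (50.7%).

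Genes with a short genomic span were lower more often, since 281 of the 568 lower genes spanned 20 kb or more, a class that held 5501 of the 6691. Of 140 compared genes under 5 kb, 68.6% were lower at day 7, with a median log2 difference of −1.48, and of 259 genes of 5 to 10 kb, 35.1% were. From 20 kb upwards the share lower was 4.03% to 7.63% in each span class, and 5.11% overall. A short gene has little intronic sequence, so in nuclei its counts come mostly from spliced RNA. The part of RNA quality or depth in the counts of short genes was not tested, and spans are therefore given beside groups made up of short genes.

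**Figure D1:**
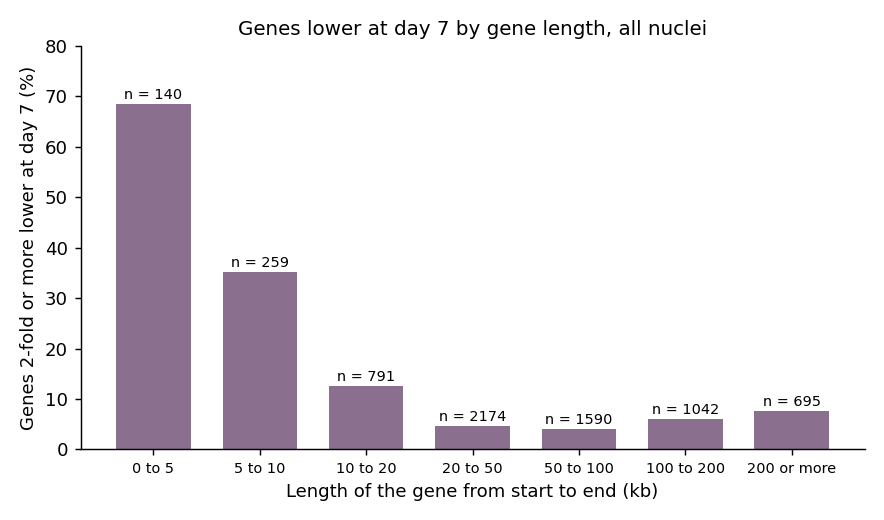
Share of compared genes (y axis, percent) that were 2-fold or more lower at day 7 than at day 5 in each class of genomic span (x axis, kb), over all kept nuclei, with the number of genes above each bar. The share lower stands at 68.6% under 5 kb and at 4.03% to 7.63% in the classes from 20 kb upwards.

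Of 22 listed cartilage genes, 17 were compared, 9 were higher in the day 7 library and none was lower, with a median log2 difference of 1.13 against −0.21 for all genes. Relative to the median gene, 10 were higher, the addition being Col11a2, a chain of the minor fibrillar collagen XI. Summed over the list, the day 5 library had 7830 CPM and the day 7 library 13432 CPM. The other 4 libraries lay between 1198 and 2435 CPM, so that both callus libraries stood above them and the day 7 library stood highest.

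Structural collagens of cartilage were among the 9. Col2a1, the main fibrillar collagen of cartilage (chr15:97975602-98004695 in GRCm38), stood at 466 CPM (4190 UMIs) at day 5 and at 1292 CPM (2724 UMIs) at day 7, a 2.77-fold difference (2.64 to 2.91). Col9a1, a collagen that coats type II fibrils, went from 184 to 530 CPM, 2.88-fold (2.66 to 3.10). The other 2 chains of collagen IX moved alike, Col9a2 from 48.2 to 116 CPM and Col9a3 from 103 to 236 CPM. In the 4 libraries before day 5, Col2a1 lay between 0 and 7.12 CPM and Col9a1 between 0.25 and 2.90 CPM, far below both later libraries. Hapln1, the link protein that ties aggrecan to hyaluronan (chr13:89539796-89611652), stood at 468 and 1024 CPM, 2.19-fold higher (2.07 to 2.30). Matn3, a matrilin of the cartilage matrix, had 124 and 288 CPM. Cnmd, which codes for the vessel-inhibiting protein chondromodulin, had 52.1 and 127 CPM. Chst11, an enzyme that sulfates chondroitin, had 403 and 912.5 CPM. Fgfr3, the growth factor receptor that restrains chondrocyte proliferation, had 24.5 and 74.0 CPM, 3.02-fold higher (2.45 to 3.73).

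Other cartilage genes stayed within 2-fold. Acan, the large proteoglycan of cartilage, stood at 426 CPM at day 5 and 734 CPM at day 7, a log2 difference of 0.78. Among the transcription factors of chondrogenesis, Sox5 (746 and 1231 CPM, log2 0.72) and Sox6 (998.8 and 1558 CPM, log2 0.64) differed in the same direction as the collagens, while Sox9 had 84.6 and 76.4 CPM (log2 −0.15). Col11a1 (log2 0.47), Col11a2 (0.91), Comp (0.54) and Wwp2 (0.45) were likewise within 2-fold. Ucma and Snorc, both made by chondrocytes, were too low to compare, with 69 and 78 UMIs at day 5 against 39 and 21 at day 7.

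The order of the days was the same for these genes at equal depth. With every nucleus thinned to 500 UMIs, the share of nuclei with a Col2a1 UMI was 8.61% at day 5 and 23.8% at day 7, where the unthinned shares were 20.5% and 29.7%. The thinned shares were 5.51% and 19.7% for Hapln1 (unthinned 12.1% and 30.8%), 10.1% and 21.1% for Acan (29.7% and 35.1%), and 4.39% and 14.4% for Col9a1 (10.4% and 23.5%). Sox9 again went the other way, with 3.54% and 2.87% (unthinned 15.2% and 9.95%). Cartilage UMIs were concentrated in few nuclei on both days: 50% of them lay in 91 nuclei at day 5 (4.08%) and in 73 nuclei at day 7 (6.54%), and the median nucleus gave 0.243% and 0.442% of its UMIs to the list.

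Hypertrophic cartilage genes held 2 higher and 1 lower gene of 9 compared among 10 listed, with a median of 0.81. Col10a1, the collagen of hypertrophic cartilage (chr10:34389981-34397085), stood at 19.2 CPM at day 5 and 60.7 CPM at day 7, 3.15-fold higher (2.49 to 3.99), against 0 to 1.72 CPM in the 4 earlier libraries. Its UMIs came from 38 nuclei at day 5 and 53 at day 7. Pth1r, the receptor for parathyroid hormone and its related peptide, stood at 152 and 312 CPM, 2.05-fold higher (1.87 to 2.25). Spp1, which codes for osteopontin and is made by osteoblasts, hypertrophic chondrocytes and macrophages, was the lower gene, with 107 and 33.7 CPM. Its span is 5.93 kb. Alpl, the phosphatase of mineralizing tissue (91.7 and 180.2 CPM, log2 0.98), Mmp13, a collagenase (27.1 and 47.4 CPM, log2 0.81), and Panx3 (log2 0.91) were just inside 2-fold, and relative to the median gene these 3 were higher too, making 5. Ihh, the hedgehog ligand of prehypertrophic cartilage, was below the level for comparison, with 30 UMIs at day 5 and 38 at day 7. The list's sum was 1210 CPM at day 5 and 1677 CPM at day 7, 1.39-fold apart. The day 3 libraries had 520 and 1188 CPM, 2.28-fold apart.

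Osteoblast genes did not move together: of 18 listed, 9 were compared, none was higher and 2 were lower, with a median of 0.12 that became −0.17 in nuclei thinned to 500 UMIs. Col1a1, the main collagen of bone and fibrous tissue, stood at 1944 CPM at day 5 and 702 CPM at day 7, 2.77-fold lower (2.63 to 2.92). Runx2, the transcription factor that commits cells to bone, had 1520 and 1654 CPM (log2 0.12). Sp7, which acts after Runx2, differed by −0.30, and Ibsp, which codes for bone sialoprotein, by −0.87 (142 and 77.3 CPM). Bglap, which codes for osteocalcin and marks mature osteoblasts, had 41 UMIs at day 5 and none at day 7. It was too low to compare and spans 0.964 kb, in the class where 68.6% of compared genes were lower. The list's sum was 4454 and 3303 CPM.

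**Figure D2:**
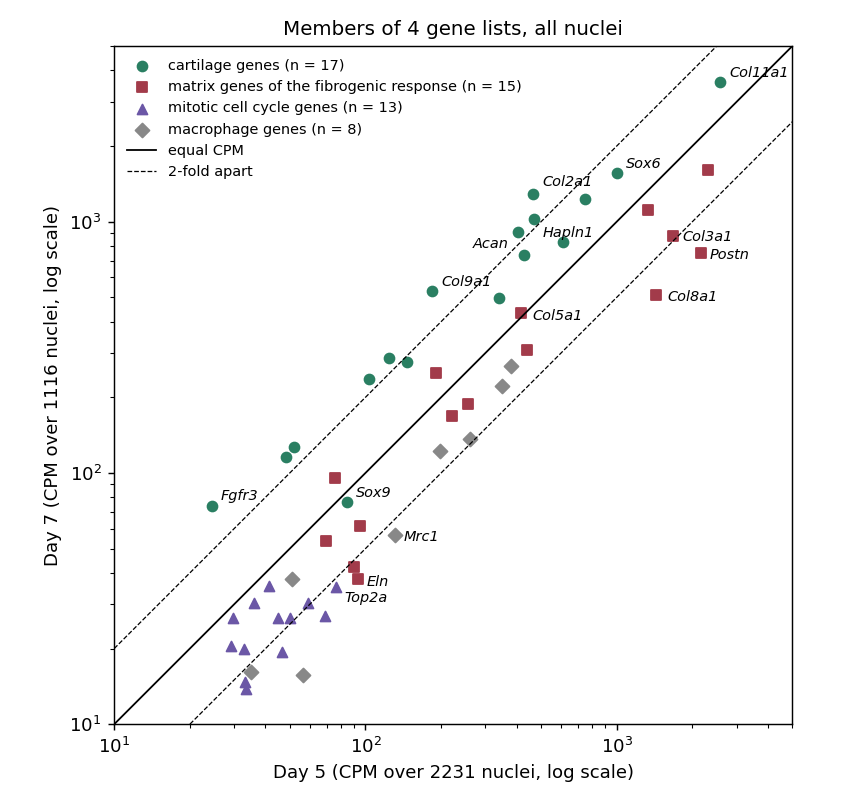
CPM at day 5 (x axis, log) against day 7 (y axis, log) for the compared genes of 4 lists over all kept nuclei, 1 point per gene, with a solid line at equal CPM and dashed lines 2-fold apart. Cartilage genes (17) lie on or above the upper dashed line or between the lines. Below the lower dashed line lie 4 of 15 matrix, 5 of 13 mitotic and 3 of 8 macrophage genes, such as Postn, Top2a and Mrc1.

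Matrix genes of the fibrogenic response summed to 10849 CPM at day 5 and 6496 CPM at day 7. All 15 were compared, 4 were lower and none was higher, and the median was −0.51. Postn, which codes for the matricellular protein periostin (chr3:54361109-54391037), stood at 2154 CPM (19365 UMIs) and 747 CPM (1575 UMIs), 2.88-fold lower (2.74 to 3.04). Col8a1, a short-chain collagen, had 1435 and 509 CPM, 2.82-fold lower (2.65 to 3.00), and Eln, which codes for elastin, had 93.4 and 37.9 CPM, 2.46-fold lower (1.96 to 3.14). Lox, the enzyme that crosslinks collagen and elastin, had 90.1 and 42.2 CPM, a 2.13-fold difference that was under 2-fold relative to the median gene. Postn, Col8a1 and Eln span 29.9, 130.5 and 44.7 kb, in the classes where few genes were lower.

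The remaining fibrous collagens were within 2-fold. Col3a1, the collagen of early repair tissue, had 1674 and 878 CPM (log2 −0.93). Col5a2 had 2304 and 1607 CPM (log2 −0.52) and Col12a1 1333 and 1113 CPM (−0.26). Col5a1 (0.06), Pxdn (0.33) and Smoc2 (0.38) had differences above 0. After thinning, a Postn UMI was found in 33.7% of nuclei at day 5 and 22.2% at day 7 (unthinned 56.9% and 38.6%), and a Col8a1 UMI in 22.1% and 15.8% (40.8% and 26.5%). The day 5 library held the highest Postn level of all 6, since the uninjured libraries had 23.3 and 60.2 CPM and the day 3 libraries 396 and 457 CPM.

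Among collagen processing genes, 15 of the 19 in the files were compared, 2 were lower, none was higher, and the median was −0.74. Serpinh1, the collagen chaperone of the endoplasmic reticulum, stood at 268 CPM at day 5 and 48.4 CPM at day 7, 5.53-fold lower (4.53 to 6.81), and spans 7.86 kb. The other lower gene was Lox. Metalloproteinases and their inhibitors held 14 compared genes of 21, with 3 lower, none higher and a median of −0.60. Those 3 were Mmp14, a membrane-bound protease (279 and 107 CPM), Mmp23 (41.6 and 15.7 CPM) and the inhibitor Timp1 (41.8 and 9.96 CPM), which span 13.8, 2.73 and 4.57 kb. Complement and stromal homeostasis genes gave 12 compared of 16, with 2 lower and a median of −0.31. Among the 2 was Mgp, an inhibitor of calcification (65.4 and 13.8 CPM), which spans 3.39 kb.

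Signalling genes of the BMP, TGFb and PDGF families moved in both directions. All 12 were compared, 1 was higher, 2 were lower, and the median was −0.27. Tgfb3, a TGFb ligand, stood at 51.7 CPM at day 5 and 128 CPM at day 7, 2.47-fold higher (2.11 to 2.87), and its 4 earlier libraries lay between 37.6 and 51.0 CPM. Bmp5, a bone morphogenetic protein, stood at 307 and 117 CPM, 2.63-fold lower (2.31 to 3.01). Pdgfc, a platelet-derived growth factor, had 376 and 176 CPM, a 2.13-fold difference that was lost relative to the median gene. Pdgfrb, a receptor for PDGF, had 61.4 and 107 CPM (log2 0.80). Of 13 Notch genes 12 were compared and none was called, and their median of −0.02 was 0.19 relative to the median gene.

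Of 16 macrophage genes 8 were compared, 3 were lower at day 7, none was higher, and the median was −0.81, with sums of 1555 and 894 CPM. These sums were 1.74-fold apart, against 2.45-fold between the uninjured and 2.40-fold between the day 3 libraries. Mrc1, the mannose receptor, had 131 and 56.4 CPM, 2.32-fold lower (1.92 to 2.83), with 22.7% of its day 7 UMIs from 1 nucleus. Csf1r, the receptor for macrophage colony-stimulating factor, had 35.2 and 16.1 CPM, which was under 2-fold relative to the median gene. F13a1 (379 and 267 CPM, log2 −0.50), Dab2 (350.1 and 221 CPM, −0.66) and Maf (259.9 and 136 CPM, −0.93) were within 2-fold. Injury macrophage and monocyte genes gave 9 compared of 16, with 3 lower, none higher and a median of −0.49. Slc7a11, a cystine transporter, had 65.3 and 22.8 CPM, and Spp1 was lower too. Hmox1, which breaks down heme and spans 6.97 kb, had 75.5 and 37.0 CPM, which was under 2-fold relative to the median gene.

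Antigen presentation and dendritic cell genes had few UMIs at day 7, and 2 of 10 reached the level for comparison (median −1.57). The list's sums were 177 and 47.0 CPM, 3.77-fold apart. Between the day 3 libraries they were 10.1-fold apart (93.2 and 944 CPM), and between the uninjured ones 1.25-fold. Cd86, a costimulatory ligand, was lower with 40.8 and 6.64 CPM, 6.15-fold (3.62 to 11.4). Below that level, H2-Aa had 138 UMIs at day 5 and none at day 7, and H2-Ab1 99 and none. H2-Eb1 had 128 and 1, and Cd74, the invariant chain of MHC class II, 266 and 4. H2-Aa, H2-Ab1, H2-Eb1 and Cd74 span 5.08, 11.7, 10.8 and 8.81 kb. Of all compared genes, 35.1% were lower in the class of 5 to 10 kb and 12.6% in that of 10 to 20 kb. Dock2, a signalling protein of leukocytes and no list member, named from the ranking of genes of 20 kb or more, had 294 and 75.9 CPM. The day 3 libraries had 377 and 926 CPM of Dock2 and the uninjured ones 26.5 and 155 CPM, so the day 7 level lay between the uninjured ones. No neutrophil gene of 14, lymphocyte gene of 12 or erythroid gene of 7 was high enough to compare, and their sums were 43.7 and 29.9, 29.8 and 15.2, and 13.9 and 10.4 CPM. Of 18 chemokines and cytokines, 2 were compared and none was called (median −0.70), and of 5 mast cell genes only Kit was (log2 0.35). Osteoclast genes summed to 992 and 882 CPM, with none of 7 compared genes of 13 called and a median of −0.13 that was 0.07 relative to the median gene. Slc9b2, a sodium/proton exchanger of osteoclasts, was closest to a call with 26.8 and 53.1 CPM (log2 0.99).

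Endothelial genes of 3 lists held lower genes at day 7. Among pan-endothelial genes 10 of 12 were compared, 3 were lower, none was higher, and the median was −0.81, with sums of 1045 and 719 CPM. Emcn, the endomucin of capillaries and veins, stood at 99.6 and 38.9 CPM, 2.56-fold lower (2.04 to 3.25), and Cyyr1 at 137 and 56.4 CPM. Flt1, a receptor for VEGF, stood at 142 and 66.9 CPM, which was under 2-fold relative to the median gene. Erg, a transcription factor that is also made in cartilage, had 182 and 273 CPM (log2 0.58), while Cdh5 (−0.69), Tek (−0.93) and Ptprb (−0.95) were within 2-fold on the other side. Of 12 endothelial tip and sprouting genes 5 were compared, with Nid2, a basement membrane protein, higher (23.02 and 64.5 CPM) and Pdgfb (31.9 and 10.4 CPM) and Col4a2 (161 and 72.6 CPM) lower, the last under 2-fold relative to the median gene, and a median of −0.73. Of 16 arterial, venous and lymphatic genes 4 were compared, with Nr2f2, a factor of venous identity that stromal cells also make, lower (72.1 and 25.6 CPM) and a median of −0.85. Of 12 smooth muscle and pericyte genes 7 were compared, with a median of −0.40. Cspg4, which codes for the proteoglycan NG2, was higher (32.0 and 65.5 CPM). Acta2, smooth muscle actin (37.1 and 14.2 CPM), and Mcam, the adhesion protein CD146 (47.8 and 11.9 CPM), were lower. These lower genes span 14.5 and 8.26 kb.

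Of 20 mitotic genes 13 were compared, 5 were lower at day 7, none was higher, and the median was −0.92, with sums of 697 and 400 CPM. Kif15, Ect2, Kif11, Kif4 and Top2a made up the 5, the first at 68.9 and 27.0 CPM and Top2a, the topoisomerase that untangles chromosomes, at 76.2 and 35.1 CPM. Relative to the median gene 3 were lower, without Top2a and Kif4. Mki67, the most used proliferation marker, had 36.0 and 30.4 CPM (log2 −0.25). A Top2a UMI was found in 2.91% and 1.34% of thinned nuclei (unthinned 10.7% and 3.41%). S phase genes had 6 compared of 16, with Dtl lower (31.6 and 11.9 CPM) and a median of −0.70.

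Immediate-early genes had the lowest median of any list with at least 5 compared genes, −1.48. Of 20 listed, 9 were compared and 7 were lower, or 5 relative to the median gene. The FOS and JUN family gave the clearest cases, with Fos at 35.6 and 6.17 CPM, 5.77-fold lower (3.33 to 10.96), and Jun at 42.6 and 8.54 CPM, 4.99-fold lower (3.12 to 8.51). Fos and Jun span 3.38 and 3.19 kb, in the class where 68.6% of all genes were lower, and Fos had 26.5 and 6.24 CPM in the uninjured libraries. Fosl2 (−0.43) and Klf6 (−0.79) were within 2-fold. Hypoxia and glycolysis genes, 14 compared of the 20 in the files, had a median of 0.32, with Bnip3, a mitophagy receptor, higher (31.4 and 84.4 CPM) and the glycolytic enzyme Tpi1, which spans 3.71 kb, lower (30.6 and 10.9 CPM).

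The remaining lists held few calls. Stem/progenitor genes had 4 compared of 8, none called, a median of −0.31 and sums of 359 and 279 CPM. Tendon genes had 4 of 6, with the collagen-binding proteoglycan Fmod lower (48.1 and 13.8 CPM) and a median of −0.56. Schwann cell genes (2 of 8, median 0.20), neuronal genes (2 of 10, median 0.34) and skeletal muscle genes (6 of 13, median −0.40) had no call, and neither had the adipocyte list, where only Pparg was compared (62.4 and 33.2 CPM, log2 −0.91). Skeletal muscle genes were limited by the filter on nuclei, which used 4 of their kind. Over all 32 lists, 11 had sums farther apart between day 5 and day 7 than between either pair of libraries with the same label. They were the cartilage, fibrogenic matrix, collagen processing, metalloproteinase, BMP, TGFb and PDGF, mitotic, S phase, immediate-early, pan-endothelial, tip and sprouting, and arterial, venous and lymphatic lists. Margins were small for collagen processing genes (1.31-fold, against 1.30-fold between the uninjured libraries) and metalloproteinases (1.37-fold against 1.31-fold). The mitotic sums were 1.74-fold apart, against 1.66-fold between the day 3 libraries. None of these sums was set relative to the median gene. Of the 20 lists with at least 5 compared genes, 6 had a median above that of all genes.

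**Figure D3:**
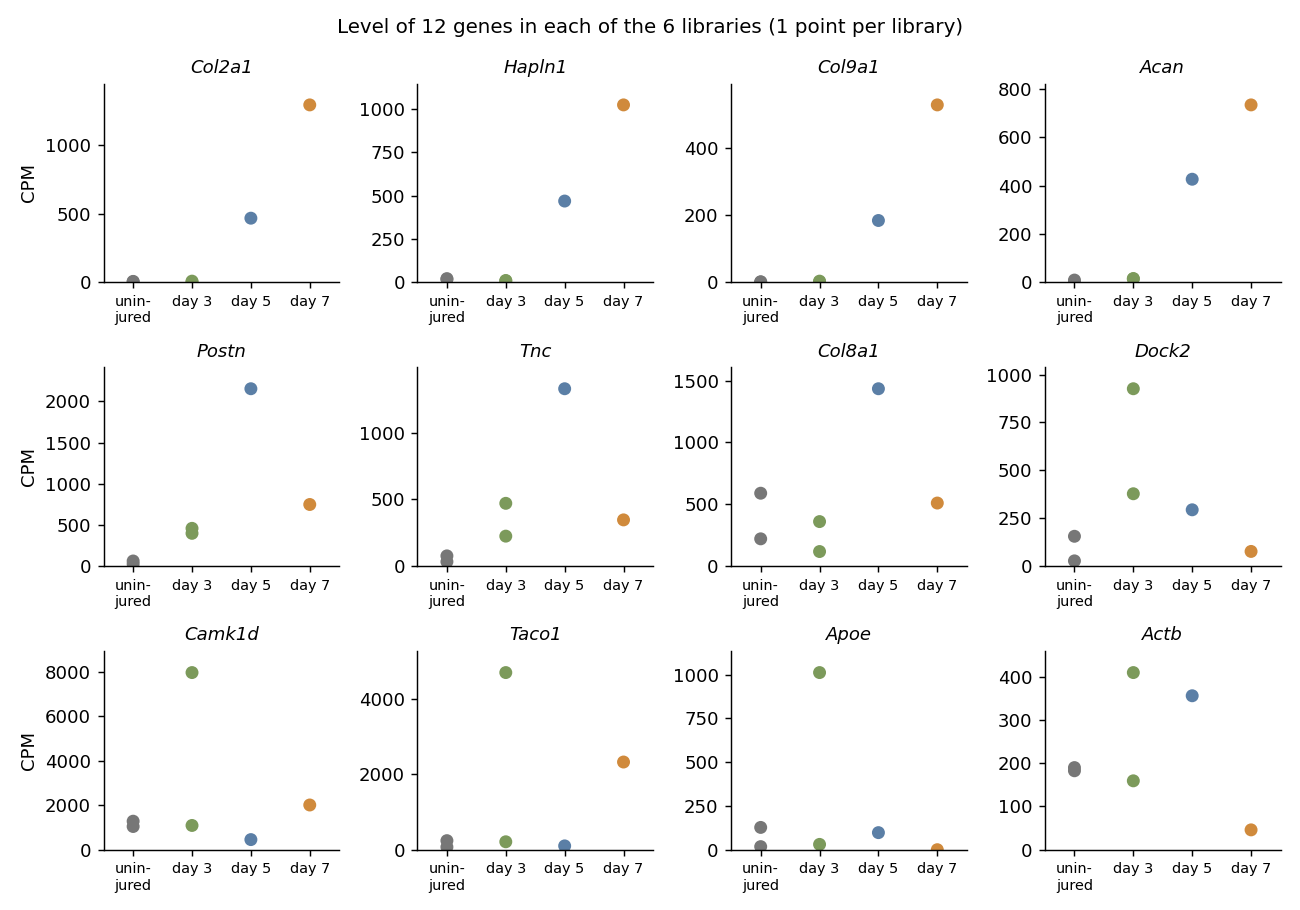
CPM (y axis, from 0) of 12 named genes in the 6 libraries of the series (x axis: 2 uninjured, 2 day 3, day 5 and day 7), each point 1 library. Col2a1, Hapln1, Col9a1 and Acan have their highest point at day 7, Postn, Tnc and Col8a1 at day 5, and Dock2, Camk1d, Taco1, Apoe and Actb in a day 3 library.

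Ranked by size alone, the genes with the widest differences were mostly not genes of the callus lists. Gm42418, a gene that overlaps ribosomal RNA sequence, stood at 2223 and 80311 CPM (0.222% and 8.03% of UMIs), and AY036118, another such gene, at 26.8 and 770 CPM. Gm42418 also differed widely between libraries with the same label, with 48689 and 12855 CPM in the uninjured and 127114 and 6815 CPM in the day 3 libraries. AC149090.1, Tmlhe and CAAA01118383.1 had no UMI at day 5 and 264, 210 and 152 UMIs at day 7, but they lie on the scaffolds that received no UMI at day 5, so their absence there is not read as a difference in expression. Tmem267 stood at 19.8 and 523 CPM, with 44.8% of its day 7 UMIs from 1 nucleus. Taco1 (103 and 2326 CPM), Gm19951 (6.01 and 86.8 CPM) and Xlr5a (3.45 and 46.95 CPM) were also among the 10 highest. Taco1 had 4697 and 212 CPM in the 2 day 3 libraries, so it also varied between libraries of the same day.

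The 10 lowest by the same ranking were Apoe, Ly6e, Gpx3, Crip1, Tagln2, Id3, Cebpb, Ftl1, Trim63 and Pfn1. Except Trim63 at 14510 bases, they spanned 1504 to 7925 bases, in the 2 classes where 68.6% and 35.1% of all genes were lower. Apoe, an apolipoprotein made by macrophages and fibroblasts, had 880 UMIs at day 5 and 1 at day 7 (97.9 and 0.474 CPM). It had 30.8 and 1011 CPM in the day 3 and 18.0 and 128 CPM in the uninjured libraries. Gpx3, an extracellular glutathione peroxidase, stood at 237 and 16.6 CPM, 14.3-fold lower, and its thinned share of nuclei was 10.4% and 1.43% (unthinned 38.3% and 2.69%). Crip1 and Ly6e had 73.2 and 5.69 CPM and 47.6 and 2.85 CPM. Actb, the cytoplasmic actin used as a reference gene, which spans 3640 bases, stood at 356 and 46.0 CPM, against 159 to 409 CPM in the 4 earlier libraries.

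Among genes of 20 kb or more, cartilage and matrix genes stood in the ranking. Col27a1, a fibrillar collagen of cartilage, stood at 389.7 and 1152 CPM (log2 1.56), Prkg2, a kinase required for chondrocyte hypertrophy, at 115 and 340.0 CPM (1.57), and Pcsk6, a proprotein convertase, at 66.0 and 219.6 CPM (1.74). Col27a1 had at most 150.2 CPM in the 4 earlier libraries, and Pcsk6 had 139.8 CPM in 1 uninjured library. Camk1d (458 and 2015 CPM), Cdk8 (193 and 726 CPM) and Lars2 (98.5 and 742 CPM) were also higher, but the day 3 libraries alone had 7973 and 1094, 1413 and 309, and 1484 and 281 CPM of these 3. On the lower side stood Tnc, which codes for tenascin-C (1332 and 346 CPM, −1.94), the protocadherin Fat3 (382 and 89.6 CPM, −2.09), the lysosomal protease Ctsb (160.1 and 40.8 CPM, −1.97), the leukocyte genes Arhgap15 (211 and 41.7 CPM, −2.34), Dock2 and Fyb, and Postn and Col8a1. Tnc was highest at day 5 of all libraries, and its thinned share of nuclei was 23.8% and 10.5% (unthinned 48.1% and 22.4%).

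Nuclei were next divided by 3 genes: Ptprc, the leukocyte antigen CD45, Pecam1, the endothelial adhesion protein CD31, and Col1a2, a collagen of fibroblasts and osteoblasts. A nucleus belonged to a gate with 1 or more UMI of its gene and none of the other 2. At day 5, 160 nuclei were Ptprc-positive, 7.17% (6.14 to 8.32) of those kept, and at day 7, 36 were, 3.23% (2.27 to 4.44), with exact binomial intervals here and below that cover counting error over the nuclei of 1 library only. Pecam1-positive nuclei made up 3.72% (2.97 to 4.59, 83 nuclei) and 4.57% (3.42 to 5.97, 51 nuclei). Col1a2-positive nuclei made up 59.2% (57.1 to 61.2, 1320 nuclei) and 63.9% (61.0 to 66.7, 713 nuclei). Nuclei with none of the 3 genes went from 132 (5.92%, 4.97 to 6.98) to 236 (21.1%, 18.8 to 23.7), and those with more than 1 of them from 536 (24.0%) to 80 (7.17%).

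These shares moved with depth. Thinned to 500 UMIs, the Col1a2-positive share was 51.0% at day 5 and 44.3% at day 7, the Pecam1-positive share 4.93% and 3.76%, the share with none 30.7% and 47.0%, and the mixed share 5.60% and 2.06%. The Ptprc-positive share was 7.75% and 2.96%, lower at day 7 with and without thinning, while the direction of the Col1a2 and Pecam1 shares turned. Libraries with the same label also lay far apart. The thinned Ptprc-positive share was 8.85% and 26.7% in the day 3 libraries, where the unthinned shares were 18.7% and 12.7%. In the uninjured libraries the thinned share was 0% and 2.58%. The thinned share with none was 61.9% and 30.5% in the day 3 libraries and 60.7% and 56.6% in the uninjured ones. Collagen UMIs were also found in nuclei with marker genes of other types, and the parts of free RNA and of doublets in this were not tested. Immune-marked nuclei had 3 or more UMIs of immune marker genes and none of the endothelial ones, and should lack collagen. Among them, Col1a2 had a UMI in 315 of 486 (64.8%) at day 5 and 19 of 54 (35.2%) at day 7. Their median depths were 1901.5 and 1036.5 UMIs, and after thinning the counts were 78 of 256 (30.5%) and 2 of 14 (14.3%). In these immune-marked nuclei, Col2a1 had a UMI in 13.2% and 1.85%, and Hapln1 in 4.53% and 16.7%. Endothelial-marked nuclei had 3 or more UMIs of endothelial marker genes and none of the immune ones, at median depths of 5020.5 and 2411 UMIs. Col1a2 had a UMI in 234 of 280 (83.6%) and 70 of 103 (68.0%) of them. After thinning the counts were 29 of 96 (30.2%) and 1 of 24 (4.17%). Col2a1 was found in 30.4% and 54.4%, and Hapln1 in 22.1% and 49.5%. Pecam1 itself was found in only 38.2% and 26.2%, and the marker genes include Erg, so these nuclei cannot be taken as endothelial throughout. The Ptprc gate left out most nuclei with a Ptprc UMI at day 5: counting nuclei with or without the other genes, 508 had a Ptprc UMI at day 5 and 80 at day 7, of which 306 and 43 also had Col1a2.

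**Figure D4:**
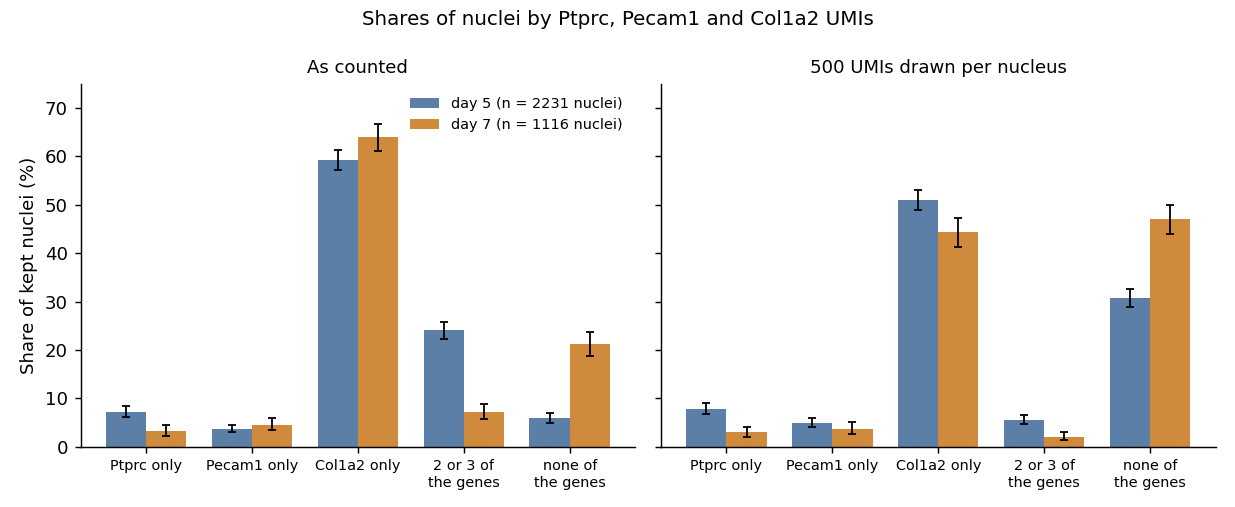
Share of kept nuclei (y axis, percent) in each gate (x axis) at day 5 and day 7, as counted and after thinning each nucleus to 500 UMIs, with exact 95% binomial intervals. Only the Ptprc-positive, the mixed and the gene-free shares keep their order between the days after thinning (7.75% and 2.96%, 5.60% and 2.06%, 30.7% and 47.0%).

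The gates held the marker genes of their names. Ptprc-positive nuclei had all 8 immune markers on both days (sums of 4850 and 3670 CPM), with stromal markers at 898 and 326 CPM and chondrocyte markers at 155 and 701 CPM. Pecam1-positive nuclei had all 7 endothelial markers (5336 and 3719 CPM), with stromal markers at 645 and 386 CPM and chondrocyte markers at 60.2 and 604 CPM. In Col1a2-positive nuclei, stromal markers stood at 8749 and 3979 CPM, chondrocyte markers at 1202 and 2219 CPM and osteoblast markers at 2294 and 1965 CPM. The nuclei with none of the 3 genes were of different make-up on the 2 days. Stromal markers were the most frequent class on both, in 81.1% and 61.4% of them (1835 and 1506 CPM). Chondrocyte markers were found in 18.2% and 46.6% (409 and 3707 CPM) and osteoblast markers in 29.5% and 57.2% (382 and 3096 CPM). Immune markers had 1391 and 469 CPM and muscle markers 240.0 and 65.5 CPM.

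Within Col1a2-positive nuclei, 6478 genes were compared, of which 126 were higher (1.95%) and 467 lower (7.21%), at a median of −0.16. Relative to that median the counts were 183 and 322, so the higher share went from 21.2% to 36.2%. The fibrogenic matrix genes had 5 lower of 15 and a median of −0.58, with sums of 13844 and 7829 CPM. Postn stood at 2823 and 936 CPM, 3.02-fold lower (2.86 to 3.19), Col8a1 at 1844 and 643 CPM, 2.87-fold lower (2.68 to 3.06), and Eln and Lox differed by −1.29 and −1.31. Col3a1 was the fifth, with 2134 and 1032 CPM, but was within 2-fold of the median gene. Col1a1 stood at 2383 and 856 CPM, 2.79-fold lower (2.63 to 2.95). Ibsp was also lower, with 157 and 73.2 CPM, but was within 2-fold relative to the median gene, whereas Runx2 had 1955 and 1670 CPM (log2 −0.23). Bmp5 had 396 and 137 CPM and Tgfb3 64.4 and 155 CPM, so their order in all nuclei held within the gate.

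Cartilage genes in the same nuclei had 7 higher and none lower of 17, and a median of 0.80, with sums of 9559 and 14075 CPM. Col2a1 stood at 561 and 1329 CPM, 2.37-fold higher (2.24 to 2.50), Col9a1 at 219 and 571 CPM, and Fgfr3 at 27.7 and 74.6 CPM. Cnmd (63.4 and 148 CPM), Matn3 (147 and 323 CPM), Col9a2 (54.8 and 115 CPM) and Chst11 (448.5 and 905 CPM) were the other 4. Hapln1 (571 and 996 CPM, log2 0.80) and Acan (505 and 740 CPM, 0.55) were within 2-fold, as was Sox9 (108 and 74.6 CPM, −0.54). Col10a1 was higher, with 19.3 and 55.4 CPM, from 29 and 33 nuclei. The 4 mitotic genes Kif11, Kif15, Ect2 and Kif4 were lower of 13 compared, with sums of 723 and 445 CPM, and Kif15 and Kif4 were within 2-fold relative to the median gene. Ranked by size, AC149090.1, Tmlhe, CAAA01118383.1, Tmem267 and Gm42418 led the higher genes, and 88.4% of the day 7 UMIs of Tmem267 came from 1 nucleus. The lower genes were led by Gpx3 (291 and 17.2 CPM), Crip1, Cfl1, Id3 and Gadd45g.

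Nuclei with none of the 3 genes had the highest share of called genes. Of 3132 genes compared, 268 were higher (8.56%) and 664 lower (21.2%), at a median of −0.35, and relative to it 433 were higher and 378 lower, a higher share of 53.4% in place of 28.8%. Cartilage genes had 14 higher of 16 and none lower, a median of 2.77 and sums of 4697 and 19130 CPM, or 4282 and 17745 CPM without the nucleus with the most cartilage UMIs on each day. Hapln1 rested on 12 UMIs at day 5 and 509 at day 7, in 7 and 96 nuclei (53.3 and 1852 CPM). Col2a1 stood at 280.0 and 2183 CPM, 7.80-fold higher (6.01 to 10.3), Acan at 97.8 and 1292 CPM, 13.2-fold higher (8.59 to 21.3), and Col11a1 at 449 and 5133 CPM. Here Sox9 was higher as well, with 17.8 and 116 CPM (log2 2.71), while Sox5 (0.31) and Sox6 (0.25) were not past 2-fold. Runx2 stood at 307 and 2656 CPM, 8.66-fold higher (6.76 to 11.3), Pth1r at 40.0 and 662 CPM and Alpl at 35.6 and 277 CPM. Col10a1 had 1 UMI at day 5 and 38 at day 7. Col1a1 stood against this group with 591 and 277 CPM, a log2 difference of −1.10 that was within 2-fold relative to the median gene.

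Muscle genes were lower among these nuclei in 5 of 5 compared genes, with sums of 6306 and 975 CPM, but at day 5 only 6 of 132 nuclei held 50% of these UMIs and the median nucleus held none. The share of nuclei with a UMI of the list was 41.7% at day 5 and 52.5% at day 7. Muscle UMIs were also limited by the filter on nuclei, and without that limit the genes lower in this gate numbered 273 in place of 664. Dmd, the dystrophin gene, stood at 4569 and 618 CPM. Of 7 macrophage genes 5 were also lower, with a median of −1.18, and relative to the median gene 3 were, without Adgre1 and Mertk. A nucleus enters this gate by lacking UMIs of the 3 genes. The median depth in the gate was 1196 UMIs at day 5 and 824.5 at day 7, against 3312 and 1463 in Col1a2-positive nuclei. The part of depth in the differences of this gate was not tested.

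Ptprc-positive nuclei were few at day 7, with 36 nuclei and a median of 946.5 UMIs, against 160 nuclei and 1750.5 UMIs at day 5. Of 872 genes compared, 37 were higher (4.24%) and 70 lower (8.03%), at a median of −0.21, which became 56 and 37 relative to that median (a higher share of 60.2% in place of 34.6%). F13a1, a transglutaminase subunit of macrophages, stood at 2030 and 652.5 CPM, 3.11-fold lower (2.26 to 4.39), with 40 UMIs at day 7 of which 47.5% came from 1 nucleus. Maf had 682 and 294 CPM, 2.32-fold lower (1.44 to 3.99). Mrc1, lower over all nuclei, had 787 and 799 CPM in this gate (log2 0.02), and Adgre1, the macrophage marker F4/80, had 433 and 734 CPM (log2 0.76). The antigen presentation sum was 837 and 179 CPM and the macrophage sum 6919 and 4290 CPM.

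Osteoclast genes in this gate had sums of 1641 and 3213 CPM, or 1072 and 2267 CPM without the nucleus with the most on each day. These sums rested on few nuclei, since 4 of 160 at day 5 and 2 of 36 at day 7 held 50% of the UMIs, while the median nucleus gave 0.0602% and 0.0639% of its UMIs to the list. Nuclei with a UMI of the 3 osteoclast markers made up 9.38% and 8.33%. Atp6v0d2, a proton pump subunit needed for osteoclast fusion, stood at 354 and 930 CPM, 2.63-fold higher (1.88 to 3.63), from 25 and 13 nuclei. Myo1d had 287 and 1011 CPM, with 67.3% and 43.5% of its UMIs from 1 nucleus, and Tnfrsf11a, the receptor RANK, differed by −0.30. Cartilage genes had sums of 1185 and 4127 CPM, with 38.7% of the day 7 UMIs from 1 nucleus, and 1035 and 2733 CPM without it. The ranking was led by Tmem267 (408 of its 491 day 7 UMIs from 1 nucleus), AY036118, Gm42418, Taco1 and Hapln1 among the higher genes. Apoe, with 216 UMIs at day 5 and none at day 7, was at least 12.9-fold lower when a count of 0 was set to 3 UMIs, and Gdi2, Col1a1 (524 and 65.3 CPM), Hif1a (553 and 97.9 CPM) and Plcl1 followed it.

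Pecam1-positive nuclei numbered 83 and 51, with median depths of 2167 and 1133 UMIs. Of 1203 genes compared, 49 were higher (4.07%) and 78 lower (6.48%), at a median of −0.10. Relative to it the counts were 58 and 62, a higher share of 48.3% in place of 38.6%. Of 10 compared pan-endothelial genes 1 was lower and none was higher, with a median of −0.37 and sums of 8573 and 5868 CPM. Cdh5, the cadherin of endothelial junctions, had 520.3 and 483 CPM (log2 −0.11) and Flt1 1148 and 821 CPM (−0.48). The lower gene was Emcn, with 959 and 302 CPM, 3.18-fold (2.10 to 5.01). Nr2f2 had 344 and 84.5 CPM, 4.07-fold lower (1.89 to 10.4) on 7 UMIs at day 7, and Mcam had 309.6 and 72.4 CPM. Col4a2, a collagen of basement membrane, had 1053 and 519 CPM, under 2-fold relative to the median gene. Kit had 181 and 398 CPM, with 63.6% of its 33 day 7 UMIs from 1 nucleus.

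Genes of other cell types were also called in the Pecam1 gate. Cartilage genes had 8 higher of 8 compared, with sums of 856 and 5228 CPM, and 812 and 3508 CPM without the nucleus that held 35.1% of the day 7 UMIs. Col11a1 had 68.8 and 1364 CPM, in 13 and 20 nuclei, and Hapln1 had 3 UMIs at day 5 and 55 at day 7, the latter in 7 nuclei. The mitotic sum was 976 and 338 CPM, but 33.5% and 71.4% of it came from 1 nucleus each, and without them it was 681 and 99.8 CPM. Peg3, Col9a1 and AY036118 stood beside Hapln1 near the top of the ranking, on 1, 1 and 4 UMIs at day 5. At its foot were Pcdh17 (179 and 4 UMIs), Reln, a secreted protein that lymphatic endothelium makes (80 and 2 UMIs), Actb (126 and 4 UMIs), Abhd17b and Pde7b.

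**Figure D5:**
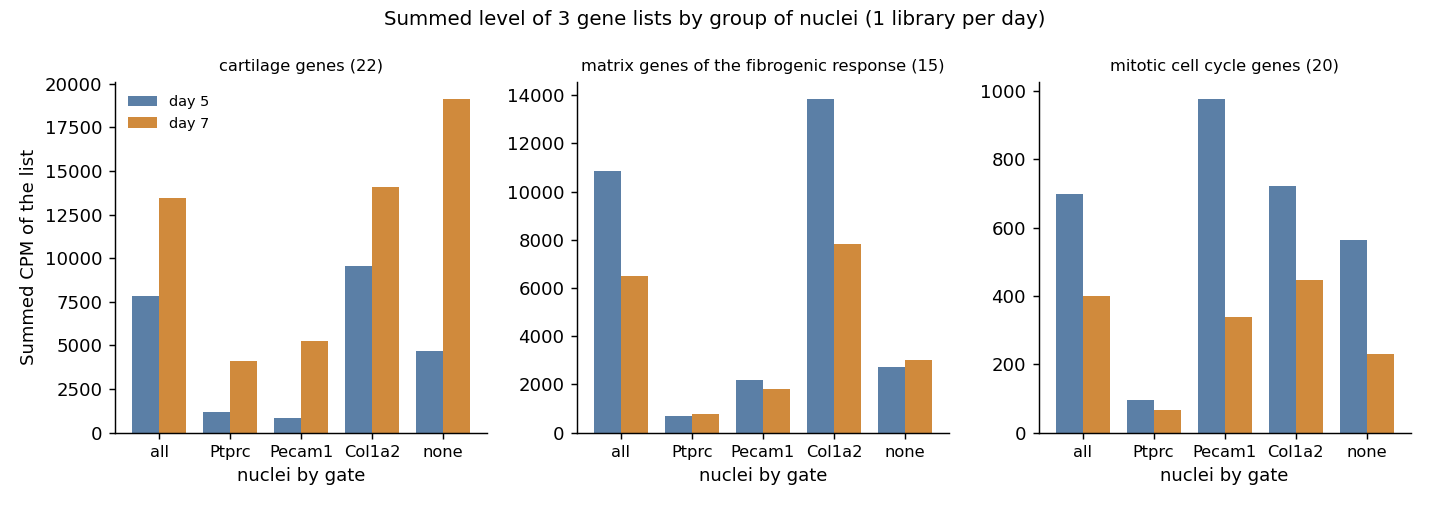
Summed CPM (y axis, from 0) of the cartilage, fibrogenic matrix and mitotic lists in all kept nuclei and in each gate (x axis), with 1 bar for day 5 and 1 for day 7 and no replicates. The day 7 bar stands above the day 5 bar for cartilage in every gate (9559 and 14075 CPM in Col1a2-positive, 4697 and 19130 CPM in gene-free nuclei), and matrix sums outside the Col1a2 gate differ little (670 and 750 CPM in Ptprc-positive, 2171 and 1823 CPM in Pecam1-positive nuclei).

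Set side by side, the Ptprc and Pecam1 gates had 582 compared genes in common. Of these, 25 and 28 were higher, 16 of them in both, and 39 and 23 were lower, 3 of them in both. The Ptprc and Col1a2 gates had 818 genes in common, with 36 and 21 higher, 15 in both, and 57 and 13 lower, 3 in both. The Pecam1 and Col1a2 gates had 1154, with 47 and 26 higher, 16 in both, and 69 and 28 lower, 11 in both. Genes that were opposite numbered 0, 2 and 1 in these pairs. These gates come from the same 2 libraries, so that a difference between the libraries as a whole enters each of them.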

How the data were processed

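The authors deposited raw UMI counts per gene and barcode, counted by Cell Ranger 6.0.0 for both libraries per the file headers. The study methods name mm10 as the genome. These counts were used as deposited. Day 5 lists 2 more rows (dsRed and egfp, no UMI) than the 32285 genes of both days. The nuclei, gene lists and named genes were chosen with earlier results of these data known.

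UMIs were summed over kept nuclei and divided by the total (CPM). A gene was compared with 20 CPM or more on average over the days, or more where a gate held few UMIs (244.7 in Ptprc-positive, 181 in Pecam1-positive, 66.7 in gene-free nuclei), and called at 2-fold or more. Total depth was 8990707 and 2108526 UMIs. Named genes were the 10 with the widest differences in each direction (5 in each gate), leaving out genes of the filter and gates, and 2 to 4 of the highest members of each of 32 lists, with the cell type markers. The other list members, the 15 in each direction among genes of 20 kb or more, and Actb were chosen after their values were seen. A count of 0 was set to 3 UMIs where a fold is given as a bound. A list of 21 and one of 20 genes had 1 symbol each that was not matched. Spans are from GENCODE (GRCm38). Intervals are exact binomial. Nuclei were thinned to 500 UMIs for shares. Doublets were sought with Scrublet in scanpy 1.11.5, at an expected 6%. Python 3.11.15, numpy 2.4.6, scipy 1.17.1 and pandas 2.3.3 were used, and the calls were tested on simulated data. Alternatives covered scaling, thinning, level and nucleus filters, gates and single-nucleus genes. The 4 other libraries entered no call of higher or lower genes, and their levels are given beside some results. Some genes that the rule names are not reported here.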

Additional observations from a re-analysis of the deposited data

Results flagged for a closer look

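There were 3 genes past 2-fold in opposite directions in different gates. Cadm1, a cell adhesion protein, had a log2 ratio of day 7 to day 5 of 2.32 in Ptprc-positive nuclei and −1.07 in Col1a2-positive nuclei. The latter was within 2-fold relative to the median gene, which stood at −0.16 in that gate. F13a1 had −1.64 in Ptprc-positive and 1.02 in Col1a2-positive nuclei, where it rested on 572 UMIs at day 5 and 296 at day 7. Col8a1 had 1.18 in Pecam1-positive nuclei, on 26 and 21 UMIs, and −1.52 in Col1a2-positive nuclei. In each case the difference between the gates was not tested, since each day has 1 library.

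The day 7 barcodes that were removed for ribosomal protein UMIs held a signal outside the comparison: they numbered 1012 and had a median of 15.4% of UMIs from Rps and Rpl genes, against 2.06% in the 89 removed at day 5. In the uninjured libraries the same median was 1.62% and 1.85%, and in the second day 3 library 2.43%. They had a median of 811.5 UMIs, with Actb at 3457 CPM, Col2a1 at 78.9 CPM, Postn at 9.87 CPM and no Ptprc UMI.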

How the results depend on the processing

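No paired analysis was possible because each day has 1 library and the labels give no replicate numbers, and for the same reason no library could be left out. Of 207 values recomputed under an alternative, 134 stayed within their limit, 68 moved and 5 reversed. Counts are given as higher then lower at day 7. Relative to the median gene they were 216 and 355 over all nuclei, 56 and 37 in Ptprc-positive and 433 and 378 in gene-free nuclei. After thinning to 500 UMIs, 937 were lower over all nuclei, and the counts were 74 and 167 (Ptprc), 94 and 226 (Pecam1) and 242 and 945 (Col1a2), with 163 higher in gene-free nuclei. With no filter on low levels they were 5542 and 3053, 6129 and 988 (Ptprc), 4657 and 1289 (Pecam1), 4927 and 2647 (Col1a2) and 2366 and 4586 (gene-free). With at least 100 CPM and 50 UMIs they were 40 and 79, 4 and 10, 9 and 12, 42 and 64, and 101 and 153 in the same order. Averaging the fraction per nucleus gave 118 lower in Pecam1-positive nuclei. A mitochondrial limit of 5% with no ribosomal limit gave 451 and 1054 over all and 161 and 1739 in gene-free nuclei, and no muscle limit gave 273 lower in the latter. Chosen after seeing the data, a limit to genes of 20 kb or more left 281 lower over all and 209 in Col1a2-positive nuclei. Leaving out genes with 25% or more of their UMIs from 1 nucleus left 17 and 40 (Ptprc), 22 and 38 (Pecam1) and 158 higher (gene-free). Allowing UMIs of the other gate genes left 24 higher in Ptprc-positive nuclei. Leaving doublets, Gm42418 and its like, or the upper gene limit out moved no count by more than 1.5 times.

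The share of Col1a2-positive nuclei differed by 4.72 percentage points (day 7 minus day 5), and this reversed after thinning (−6.74), with 2 UMIs required (−7.10), under the wider mitochondrial and no ribosomal limit (−36.3), with no muscle limit (−0.72) and with other gate genes allowed (−11.8). The Pecam1 share differed by 0.85 points, and by −1.17 after thinning, −0.72 with 2 UMIs, −1.87 under the wider limits and −6.14 with other gate genes allowed. The Ptprc share differed by −3.95 points, and by −5.87 under the wider limits and −15.6 with other gate genes allowed. List medians that moved were, relative to the median gene and after thinning, stem/progenitor −0.11 and −0.52, mast cell 0.55 and −0.92, chemokines −0.50 and −0.36, Schwann cell 0.41 and 0.35, adipocyte −0.71 and −1.29 and neuronal 0.55 and 0.64, with S phase −0.50 by the former and macrophage −1.19 by the latter. The cause of these shifts was not tested. Precision is limited by 36 Ptprc-positive and 51 Pecam1-positive nuclei at day 7, where 1 nucleus can hold most UMIs of a gene.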
